A study of Homo sapiens with 8 samples.

Results

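Steroid hormone receptors and a few classical glucocorticoid targets were followed on whole-transcript arrays of MDA-MB-231, a human breast cancer cell line that is classed as triple-negative because it lacks estrogen receptor alpha, progesterone receptor and amplified HER2. The gene list named 9 members, the receptor genes ESR1, ESR2, PGR, NR3C1, GPER1 and PGRMC1 and the target genes FKBP5, TSC22D3 and SGK1. A member was used when a row of the array table carried its symbol and no other, which gave 7 of the 9 among 22109 such genes (5 receptors and 2 targets, each with 1 row). PGRMC1 is not named in the annotation used, and the row of FKBP5 also names another gene, so neither was analysed here.

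The 8 samples comprised 3 controls without treatment, 3 that received a low dose and 2 that received a high dose, each on 1 Affymetrix Human Gene 2.1 ST array. Per the titles and the treatment protocol, the treated cells received a crude ethanol extract of wild yam (Dioscorea villosa) root at 15 or 30 µg/mL for 24 h, both described as sublethal. Other label fields of the same samples name different agents. The low samples carry Boswellia serrata extract (128 µg/mL) there, and the high samples carry 3-O-acetyl-β-boswellic acid (46 µg/mL). What the cells were given is therefore unsettled, and low dose and high dose serve here as names of the groups. Controls are labelled as untreated, with no mention of solvent, and all cultures grew in medium with 7% fetal bovine serum, which itself carries steroid hormones. The labels do not say that the replicates were separate cultures. The p-values set a difference between groups against the scatter of these samples, and that scatter may be only technical.

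Estrogen receptor alpha (ESR1) and beta (ESR2), the progesterone receptor (PGR) and the glucocorticoid receptor (NR3C1) are nuclear receptors, transcription factors that bind their hormone and then DNA. GPER1 is a G protein-coupled receptor of the cell membrane that responds to estrogens. The ligand-bound glucocorticoid receptor moves from a chaperone complex in the cytoplasm to the nucleus and activates genes such as TSC22D3, which encodes the leucine zipper protein GILZ, and SGK1, a serine/threonine kinase related to AKT. Both are standard readouts of glucocorticoid action, and SGK1 also answers to serum and cell stress.

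No member passed an adjusted p of 0.05 in any comparison. NR3C1 was the only one of the 5 receptors far above the array median, and ESR1 and PGR lay below it in the controls. The largest difference of a member from the controls was that of TSC22D3, which was higher by 0.46 ± 0.18 at the low dose and 0.58 ± 0.20 at the high dose (log2 scale, SE). Among 19 measured other targets of the glucocorticoid receptor, KLF9, NFKBIA and PER1 rose at the low dose and NFKBIA rose at the high dose. That list was chosen with earlier results of these data known.

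To show where the target genes start, 1 window of 250 bases before an annotated start is given for TSC22D3 and for SGK1 (RefSeq, GRCh38.p14, both on the minus strand, written 5′ to 3′). The window of TSC22D3 is chrX:107717063-107717312 and that of SGK1 is chr6:134174867-134175116. For TSC22D3 this is, of its 4 windows, the one with the most matches, and for SGK1 it is 1 of 3 windows with the same count of matches; both lie before a start inside the annotated span of the gene. Capitals mark matches on either strand to TGACG (reverse complement CGTCA), the half-site of cAMP response elements, and to TATAAA (reverse complement TTTATA), the TATA box.
TSC22D3: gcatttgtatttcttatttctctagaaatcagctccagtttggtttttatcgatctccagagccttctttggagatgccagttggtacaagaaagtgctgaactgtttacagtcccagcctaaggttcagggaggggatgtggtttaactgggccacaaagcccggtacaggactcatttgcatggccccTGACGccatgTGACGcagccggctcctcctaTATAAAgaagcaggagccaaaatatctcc
SGK1: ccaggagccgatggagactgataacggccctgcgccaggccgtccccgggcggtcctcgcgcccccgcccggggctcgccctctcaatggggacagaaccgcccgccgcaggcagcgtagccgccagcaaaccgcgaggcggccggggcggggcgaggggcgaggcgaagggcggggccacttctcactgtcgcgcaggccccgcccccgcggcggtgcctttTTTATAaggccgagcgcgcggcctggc

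The window of TSC22D3 held 2 matches to TGACG and 1 to TATAAA, and that of SGK1 held 1 to TATAAA. Of the other TSC22D3 windows 1 held TGACG and none held TATAAA. The 7 members have 30 windows, of which 7 held TGACG and 6 held TATAAA. Some windows of a gene overlap, among them those of PGR at chr11:101129064-101129313 and chr11:101129078-101129327, so a site can be counted more than once. Over all 35116 windows in the table, 21.2% held TGACG and 10.7% held TATAAA. None of the 30 held the palindromic glucocorticoid response element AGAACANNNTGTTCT, which was found in 1 of all windows, or the estrogen response element GGTCANNNTGACC, found in 0.0399%. The glucocorticoid half-site AGAACA (reverse complement TGTTCT) was found in 1 window of the members, before ESR1, and in 12.4% of all windows. These are matches of letters in a short window only, and response elements often lie outside such windows.

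The level of each receptor was set against the median of all 53617 rows on the same array. The rows are probe sets of differing brightness, so a distance from the median places a gene on its array but does not order transcripts by abundance. NR3C1 read 6.28, 6.20 and 6.21 (log2) in the 3 controls and lay 4.11 ± 0.04 above the array median there (SD, n = 3). It stood above 91.6% to 94.9% of rows over all 8 arrays.

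GPER1 came next, at 1.55 ± 0.21 above the array median in the controls (SD, n = 3) and above 71.1% to 75.8% of rows over the 8 arrays. ESR2 was at the median, 0.09 ± 0.23 above it in the controls (SD, n = 3). ESR1 was 0.23 below it, a difference of -0.23 ± 0.04 (SD, n = 3), and PGR was lower still at -0.62 ± 0.16 (SD, n = 3). Within the controls no neighbouring pair of receptors in this order overlapped in its distance from the median. Over all 8 arrays the ranges of ESR1 (-0.51 to 0.14) and ESR2 (-0.09 to 0.59) did overlap, as did those of ESR1 and PGR (-0.92 to -0.46). About 1 in 2 rows of the table is unnamed, and over the genes with a single symbol the median is higher, so against that median ESR2 also lay below (-0.47 on average over 8 arrays). Background was not measured in these values, so for ESR1, ESR2 and PGR a faint transcript and an absent one cannot be told apart. In such bulk RNA, fewer cells expressing a gene and less RNA per cell cannot be told apart either.

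**Figure D1:**
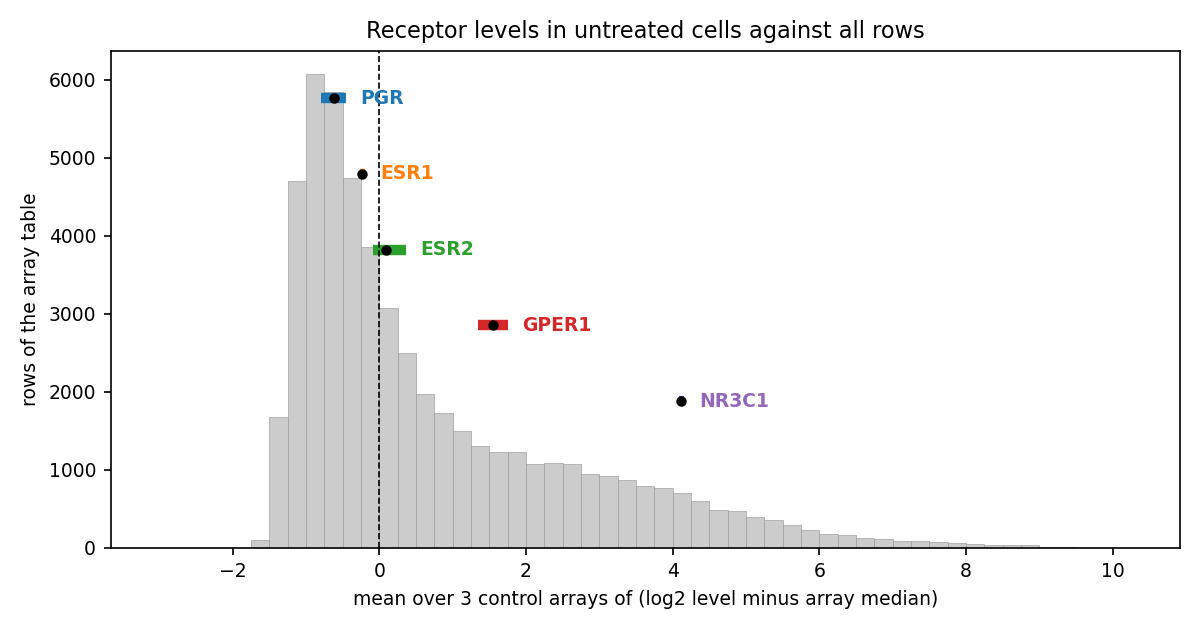
Histogram of all 53617 rows by their log2 level minus the array median, averaged over the 3 control arrays (x axis, log2 units; y axis, number of rows). For each receptor the coloured bar spans the 3 control arrays and the black dot is their mean: PGR (-0.62) and ESR1 (-0.23) lie left of the dashed line at the median, ESR2 (0.09) lies on it, and GPER1 (1.55) and NR3C1 (4.11) lie right of it.

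The glucocorticoid receptor itself read 6.57, 6.57 and 6.59 on the 3 low dose arrays against 6.20 to 6.28 in the controls. All low dose arrays lay above all controls, by 0.35 ± 0.14 on average (log2 scale, SE, 95% interval 0.04 to 0.65, 1.27-fold), but limma's adjusted p was 0.280. The replicates of NR3C1 were close, with a residual SD of 0.07, whereas the test used 0.17, a value drawn toward the spread of all genes. At the high dose NR3C1 read 6.49 and 6.29, so 1 array was near the low dose arrays and the other next to the highest control. The difference from the controls was 0.16 ± 0.16 (interval -0.18 to 0.51, adjusted p = 0.684), and the difference from the low dose was -0.18 ± 0.16 (adjusted p = 0.767). With quantile normalization these were 0.39 ± 0.16 (adjusted p = 0.288) and -0.04 ± 0.16 (adjusted p = 0.949), without high 1 they were 0.06 and -0.28, and without high 2 they were 0.26 and -0.08. The order of the group means was low, high and control, and neither neighbouring pair differed beyond the test's error.

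ESR1 read 1.85, 1.90 and 1.92 in the controls, 1.60, 1.78 and 1.69 at the low dose, and 2.18 and 1.98 at the high dose. The 3 groups did not overlap, with the low dose lowest and the high dose highest. The low dose differed from the controls by -0.20 ± 0.14 (log2 scale, SE, adjusted p = 0.622) and the high dose by 0.19 ± 0.16 (adjusted p = 0.631). The latter was 0.09 without high 1, 0.29 without high 2 and 0.31 without control 3, low 3 and high 2. Between the doses the difference was 0.39 ± 0.16 (interval 0.04 to 0.74), with limma's adjusted p at 0.543. In distance from the array median the group means were -0.40 at the low dose and 0.04 at the high dose.

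ESR2 read 2.48, 2.14 and 2.02 in the controls, 2.69, 2.38 and 2.32 at the low dose, and 2.03 and 2.28 at the high dose. Both treated groups overlapped with the controls, at differences of 0.25 ± 0.18 (SE, adjusted p = 0.614) and -0.06 ± 0.20 (adjusted p = 0.926). Each low dose array was above the control of the same number, and with the number as a block over control and low arrays the difference was 0.25 ± 0.13 (adjusted p = 0.371). It was 0.14 without low 1, 0.16 without control 3 and 0.38 without control 1. The high dose arrays lay below the low dose arrays, with a difference of -0.31 ± 0.20 (adjusted p = 0.676), which was -0.19 without high 1 or without low 1.

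PGR, itself a classical target of estrogen receptor alpha, read 1.50, 1.34 and 1.65 in the controls and 1.19, 1.17 and 1.30 at the low dose. The low dose arrays were all below the controls, at a difference of -0.27 ± 0.15 (SE, interval -0.60 to 0.05, adjusted p = 0.454). At the high dose it read 1.30 and 1.35, within reach of the lowest control (-0.17 ± 0.16, adjusted p = 0.685; -0.10 without control 3), and it differed from the low dose by 0.10 ± 0.16 (adjusted p = 0.889).

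GPER1 read 3.67, 3.88 and 3.44 in the controls, 3.62, 4.0 and 3.46 at the low dose, and 3.36 and 3.50 at the high dose. All groups overlapped. The low dose differed from the controls by 0.03 ± 0.18 (SE, interval -0.38 to 0.44, adjusted p = 0.974), the high dose by -0.23 ± 0.21 (adjusted p = 0.651), and the doses from each other by -0.26 ± 0.21 (adjusted p = 0.740). With quantile normalization the latter 2 were -0.07 and -0.12. The high dose difference was -0.13 without control 2, and that between the doses was -0.11 without low 2. In controls and at the low dose alike, replicate 2 was the highest array and replicate 3 the lowest.

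**Figure D2:**
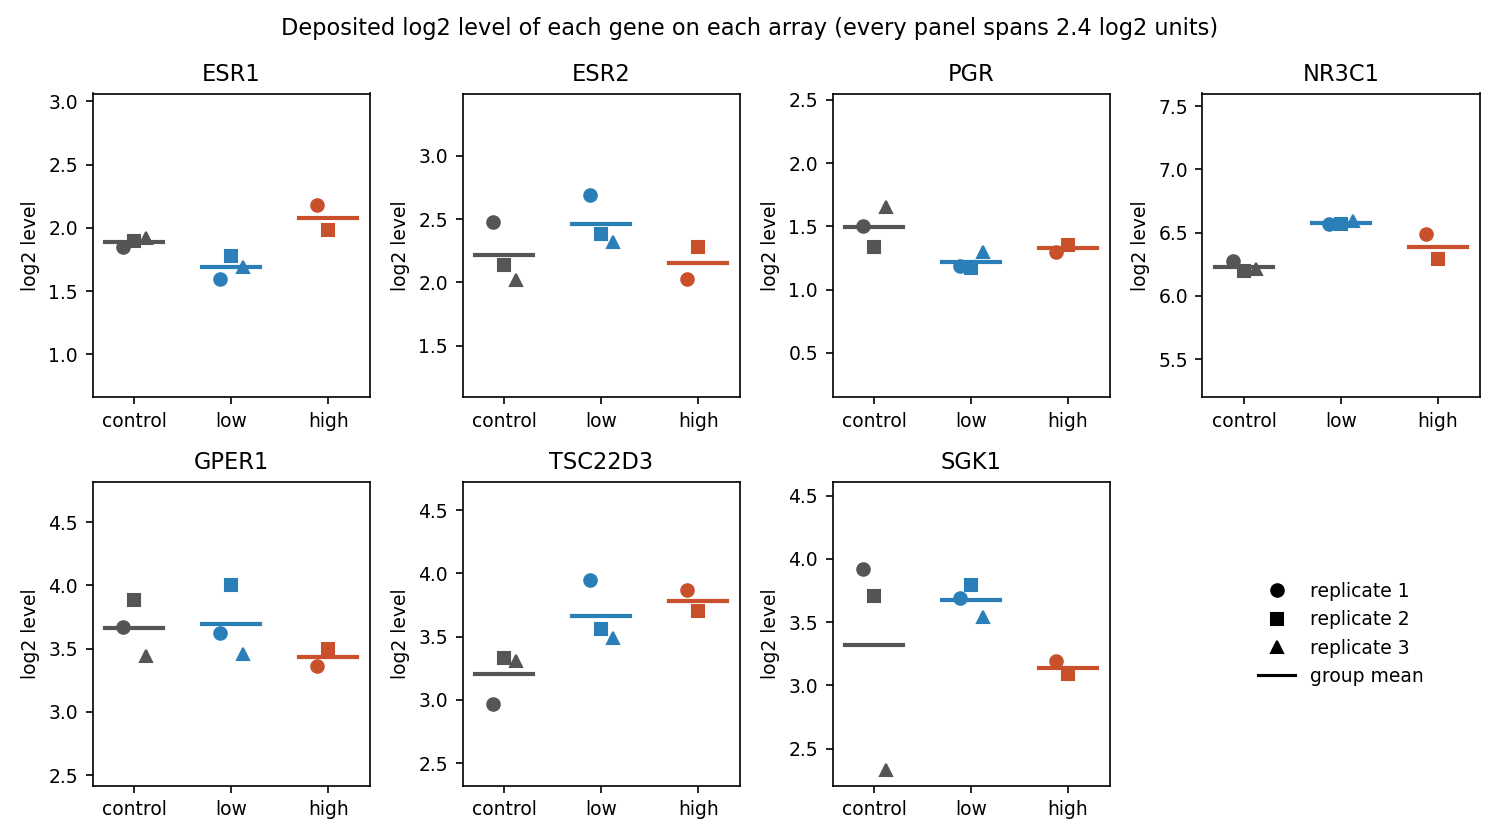
Deposited log2 level (y axis) of the 7 genes on each of the 8 arrays, by group (x axis), with the replicate number as the symbol and the group mean as a line. NR3C1 and TSC22D3 are higher on all treated arrays than on any control, the 3 groups of ESR1 do not overlap, and control 3 of SGK1 (2.33) lies far below the other controls (3.92 and 3.71).

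TSC22D3, the first of the target genes, read 2.97, 3.33 and 3.31 in the controls, 3.95, 3.56 and 3.49 at the low dose, and 3.87 and 3.70 at the high dose. Every treated array was above every control. The low dose was higher by 0.46 ± 0.18 (log2 scale, SE, interval 0.07 to 0.85, 1.38-fold), with limma's adjusted p at 0.247. The high dose was higher by 0.58 ± 0.20 (interval 0.14 to 1.02, 1.50-fold, adjusted p = 0.214). The doses overlapped and differed by 0.12 ± 0.20 (adjusted p = 0.897), with values of 0.03 to 0.26 over the alternatives. With array weights, which count the more scattered arrays less, TSC22D3 passed at the low dose (0.55 ± 0.15, adjusted p = 0.0381), and without low 1, its highest array, the difference was 0.32 (adjusted p = 0.565).

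SGK1 read 3.92, 3.71 and 2.33 in the controls, 3.69, 3.79 and 3.54 at the low dose, and 3.19 and 3.09 at the high dose. Control 3 was the lowest of all arrays, and the other controls were level with or above the low dose. The low dose differed from the controls by 0.36 ± 0.33 (log2 scale, SE, interval -0.38 to 1.09, adjusted p = 0.736), and without control 3 the difference was -0.14 ± 0.17 (adjusted p = 0.813). The high dose differed by -0.18 ± 0.37 (interval -1.0 to 0.64, adjusted p = 0.869), and without control 3 by -0.68 ± 0.18 (adjusted p = 0.0578). Both high dose arrays were below all low dose arrays, at a difference of -0.54 ± 0.37 (adjusted p = 0.706), or -0.54 ± 0.17 (adjusted p = 0.176) without control 3. SGK1 was not alone in this: control 3 lay at least 1 log2 unit below both other controls for 396 genes (1.79%), against 3 for control 1 and 13 for control 2. Its part in the values of SGK1 is given by the fits without it.

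The members' counts were read against those of all genes, though the members were chosen with earlier results of these data known. At the low dose, 0 of 7 were called by limma where 3.00% of all genes were, and 2 of 7 had an unadjusted p under 0.05 (14.1% of all genes). At the high dose, 0 of 7 were called against 0.814% of all genes, and 1 of 7 had an unadjusted p under 0.05 (14.5%). Between the doses, 0 of 7 were called against 0.00452%, which is 1 gene, and 1 of 7 had an unadjusted p under 0.05 (8.66%). The arrays of 4 members did not overlap between low dose and control (20.0% of all genes): NR3C1 and TSC22D3 were higher (7.03%), and ESR1 and PGR lower (13.0%). Between high dose and control those of 3 members did not overlap (30.0%): ESR1, NR3C1 and TSC22D3 were higher (7.07%) and none was lower (22.9%). Between the doses those of 5 members did not overlap (25.5%): ESR1 and PGR were higher at the high dose (8.77%), and ESR2, NR3C1 and SGK1 lower (16.7%). For PGR that gap was smaller than the rounding of the values given above. The median change of the members was 0.25 at the low dose and -0.06 at the high dose, beside -0.04 and -0.12 over all genes. Both dose comparisons use the same 3 controls.

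**Figure D3:**
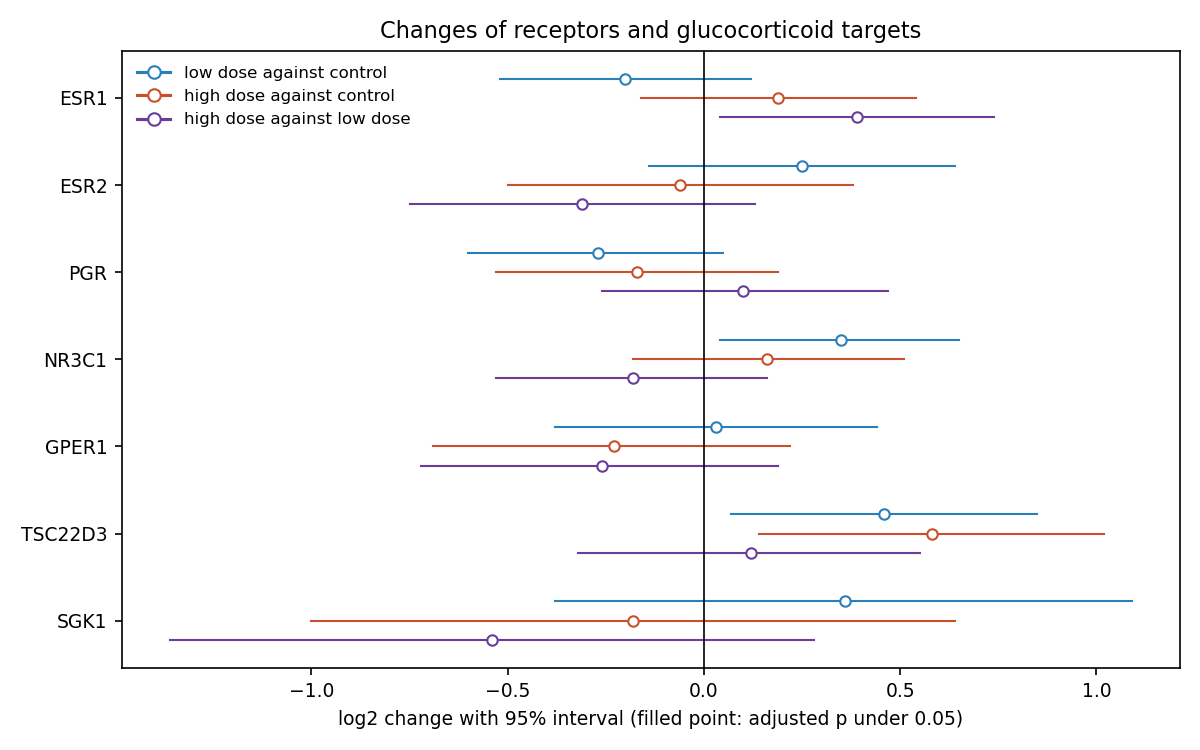
Log2 change (x axis) of the 7 genes in the 3 comparisons, with limma's 95% interval as a line, not adjusted for the number of genes; open points did not pass an adjusted p of 0.05. All points are open; the intervals of TSC22D3 leave out 0 in both comparisons with control, as do those of NR3C1 at the low dose and of ESR1 between the doses.

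The 95% intervals set what these arrays could have shown. For the 5 receptors no interval against control went past 0.69 in size, the lower bound of GPER1 at the high dose. Differences of 1 log2 unit in the deposited values thus lay outside them. For ESR1, ESR2 and PGR, where faint and absent cannot be told apart, this bounds the array signal and not a change in RNA. For TSC22D3 the interval at the high dose reached 1.02, so a 2-fold rise lay within it. For SGK1 the intervals reached 1.09 at the low dose and -1.0 at the high dose, so a 2-fold difference lay within or at their bounds; that at the low dose rests on control 3, without which the change was -0.14 ± 0.17. These intervals hold for 1 gene at a time.

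Other targets of the glucocorticoid receptor were taken from a list of 22 genes, of which 19 had a row. At the low dose 3 rose and none fell, where 1.19% of all genes were called higher and 1.81% lower. At the high dose 1 rose and none fell (0.425% and 0.389% of all genes). The median change of the 19 was 0.35 at the low dose and 0.29 at the high dose, beside -0.04 and -0.12 over all genes. The list was chosen with earlier results of these data known. Its counts and medians are therefore no independent test of glucocorticoid targets.

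KLF9, a Krüppel-like transcription factor that is a direct receptor target in many cell types, read 3.72, 3.65 and 3.05 in the controls, 5.38, 5.32 and 4.93 at the low dose, and 4.80 and 4.46 at the high dose. Every treated array was above every control. It rose at the low dose by 1.74 ± 0.21 (log2 scale, SE, adjusted p = 0.00255) and was higher by 1.16 ± 0.24 at the high dose, where limma's adjusted p of 0.0552 missed the threshold. It passed at the high dose without control 3 (0.95 ± 0.21, adjusted p = 0.0282).

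NFKBIA encodes the inhibitor of NF-κB and is induced by NF-κB itself as well as by glucocorticoids. It read 5.81, 5.90 and 5.20 in the controls, 7.01, 7.35 and 6.81 at the low dose, and 6.84 and 6.80 at the high dose. It rose by 1.42 ± 0.21 at the low dose (adjusted p = 0.00537) and by 1.18 ± 0.24 at the high dose (adjusted p = 0.0490). The call at the high dose ended in a fit of the 2 groups alone (adjusted p = 0.118) and without any 1 of control 1, control 2, low 1, low 2, high 1 or high 2, with changes of 1.16 to 1.31 and adjusted p-values of 0.0713 to 0.272.

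PER1, a repressor in the circadian clock, read 3.96, 3.56 and 3.27 in the controls, 4.85, 5.02 and 4.44 at the low dose, and 4.26 and 4.0 at the high dose. It rose by 1.17 ± 0.21 at the low dose (adjusted p = 0.0133). That call ended without low 1 or low 2 (adjusted p = 0.0628 and 0.0734). At the high dose it was higher by 0.53 ± 0.24 (adjusted p = 0.340). The doses differed by -0.64 ± 0.24 for PER1 and -0.58 ± 0.24 for KLF9, neither of which passed (adjusted p = 0.502 and 0.542).

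The rest of this list did not pass. At an unadjusted p under 0.05, 7 of the 19 were higher and 0 lower at the low dose, and 8 were higher and 1 lower at the high dose, the called genes included. Of all genes 14.1% and 14.5% had such a p in either direction. The lower one was CRISPLD2, at -0.46 ± 0.20 at the high dose (adjusted p = 0.322), against 0.32 ± 0.18 at the low dose (adjusted p = 0.482). Changes at the low dose ran from -0.40 for KLF15 to 1.30 ± 0.40 for DUSP1, a MAP kinase phosphatase (adjusted p = 0.132). The metallothionein gene MT1X was higher by 0.97 ± 0.31 and 1.18 ± 0.34 (adjusted p = 0.144 and 0.158), with no overlap of arrays. CDKN1C, a cyclin-dependent kinase inhibitor gene, was higher by 0.58 ± 0.17 and 0.84 ± 0.19 (adjusted p = 0.118 and 0.0798), also without overlap. The controls of DUSP1 and MT1X scattered widely, with SDs of 1.06 and 0.77. Their SDs were 0.23 and 0.15 at the low dose and 0.15 and 0.21 at the high dose. RGS2, a regulator of G protein signalling, was higher by 0.37 ± 0.17 and 0.75 ± 0.19 (adjusted p = 0.363 and 0.114). ZBTB16 is a zinc finger gene often used as a sensitive marker of glucocorticoid exposure. It differed by -0.06 ± 0.19 and -0.23 ± 0.21 at the low and high dose (adjusted p = 0.941 and 0.670). Its control mean of 1.64 lay below the control array medians of 2.11 to 2.12. As for ESR1, ESR2 and PGR, a faint transcript and an absent one cannot be told apart for ZBTB16. MT2A, another metallothionein gene, differed by 0.15 and 0.29 (adjusted p = 0.810 and 0.541), and CEBPD, a transcription factor gene, by -0.03 and 0.11 (adjusted p = 0.974 and 0.861). The genes named in this paragraph were chosen after their values were seen.

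**Figure D4:**
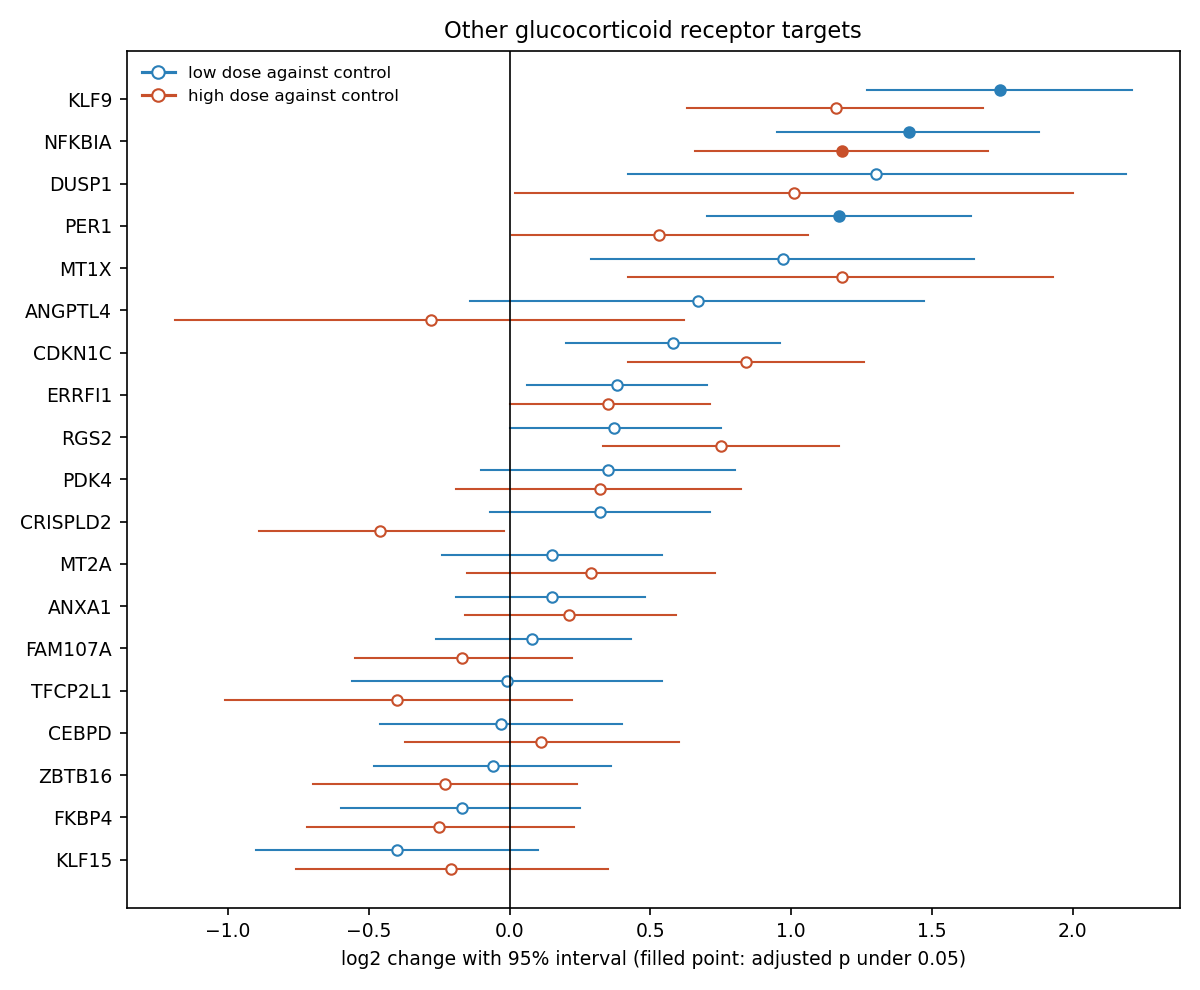
Log2 change (x axis) of 19 other glucocorticoid receptor targets at the low and high dose against control, with limma's 95% interval as a line, in the order of the change at the low dose; filled points passed an adjusted p of 0.05. KLF9, NFKBIA and PER1 are filled at the low dose and NFKBIA at the high dose, while the intervals of ZBTB16 and CEBPD include 0.

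Other receptors for steroids and their relatives were measured by 12 of 13 listed genes, and none passed at either dose. The median change was 0.03 at the low dose and -0.24 at the high dose. NR3C2, the mineralocorticoid receptor, which also binds glucocorticoids, differed by 0.09 and 0.29. The membrane progestin receptor genes PAQR5 and PAQR7 had the largest differences: PAQR5 was higher by 0.81 ± 0.21 at the low dose (adjusted p = 0.0656) and PAQR7 lower, at -0.88 ± 0.22, at the high dose (adjusted p = 0.112). These 3 were chosen after their values were seen.

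Proteins that hold receptors ready for hormone or carry their signal to the genome were also measured. None of 9 chaperone genes passed at either dose (median -0.10 and -0.25), FKBP4, the immunophilin that opposes FKBP5, differing by -0.17 ± 0.19 and -0.25 ± 0.22. None of 9 coregulator genes passed (median 0.14 and -0.08). Of these EP300, a histone acetyltransferase, chosen like FKBP4 after its values were seen, was higher by 0.82 ± 0.22 at the low dose (adjusted p = 0.0716).

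Targets of the estrogen receptors gave no call among 17 measured genes at either dose, with medians of 0.05 and -0.06. TFF1, a secreted trefoil peptide gene and a standard estrogen readout, had a control mean of 4.99 and differed by 0.01 ± 0.21 and -0.23 ± 0.24. GREB1, an estrogen receptor cofactor gene, had a control mean of 1.87 and differed by -0.16 at both doses. IGFBP4, an insulin-like growth factor binding protein gene, was lower on all treated arrays than on any control, at -0.60 ± 0.19 and -0.76 ± 0.21 (adjusted p = 0.144 and 0.145). CCND1, the cyclin D1 gene, differed by -0.20 and -0.70 (adjusted p = 0.786 and 0.227), and EGR3, a zinc finger transcription factor gene, by 0.21 and 0.80 (adjusted p = 0.799 and 0.205). These 5 examples were chosen after their values were seen. Control means of MYB (1.40), PDZK1 (1.61), EGR3 (1.84), RET (1.84), GREB1 (1.87) and CXCL12 (2.10) lay below the control array medians (2.11 to 2.12). These genes too were named after their values were seen. A faint transcript and an absent one cannot be told apart for them, so the lack of a call there says little.

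Enzymes that make or break down steroid hormones gave 1 call among 19 measured genes, at the low dose, where 3.00% of all genes were called. A single call in so short a list says little about the list as a whole. AKR1C1, which reduces progesterone to a weaker form, read 4.06, 3.99 and 3.68 in the controls, 4.55, 4.98 and 5.23 at the low dose, and 4.03 and 3.93 at the high dose. It rose by 1.01 ± 0.19 at the low dose (adjusted p = 0.0174), where all arrays were above the controls, and was level with them at the high dose (0.07 ± 0.22, adjusted p = 0.917). The difference between the doses was -0.94 ± 0.22 (adjusted p = 0.303). Its call at the low dose ended with the replicate number as a block over control and low arrays (adjusted p = 0.0660), without low 2 (0.0844), without low 3 (0.0596), and without control 3, low 3 and high 2 together (0.74 ± 0.16, adjusted p = 0.0559). AKR1C1, AKR1C2 and AKR1C3 are closely related in sequence and may share signal. AKR1C2 and AKR1C3, named for that reason, were higher by 0.88 ± 0.25 and 0.42 ± 0.17 at the low dose and did not pass (adjusted p = 0.0961 and 0.260).

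The genes whose profile over the 8 arrays was most like a member's were found by the root mean square difference between profiles after each was centred on its own mean. For NR3C1 these were TMPRSS15, RHOA and PI3, at 0.061, 0.062 and 0.067 log2 units, against a median of 0.285 over all genes. For TSC22D3 they were TGIF1, FBXO33 and ACVR1C, at 0.108, 0.110 and 0.118 (median 0.395). For SGK1 they were SELENOM, PDE4A and MZF1, at 0.068, 0.108 and 0.115 (median 0.511), and all 3 were lowest on control 3, at 2.68, 4.05 and 3.34. The measure favours genes that vary as little as the member does. The profiles of NR3C1, TSC22D3 and SGK1 themselves varied by 0.159, 0.300 and 0.490 (root mean square). TMPRSS15 read 0.96 to 1.29 over the 8 arrays, below the array medians of 2.04 to 2.12, so for it faint and absent cannot be told apart.

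Markers of cell types were also read against the array median. All 8 measured genes of the mesenchymal carcinoma list, among them VIM and AXL, were above the array median on all arrays, at means of 8.89 and 9.13 for these examples. Of the luminal list CDH1, EPCAM, GATA3, KRT19, TFF1 and XBP1 were above it on all 8 arrays, ERBB3 on 7 and FOXA1 on 1. A place above the median thus did not separate the mesenchymal list from the luminal one. The mean log2 level per gene did differ: over the arrays it ran from 7.13 to 8.02 for the mesenchymal list and from 4.09 to 4.38 for the luminal list. Probe sets differ in brightness, so this does not order the lists by abundance. Of the leukocyte markers PTPRC, CD3E and LYZ were below the median on every array, CD14 was above it on all 8 and CD79A on 6. Of the fibroblast markers DCN was below it on every array, PDGFRB and LUM were above it on 1 each and COL1A1 on all 8. Of the endothelial markers KDR was above it on all 8, VWF on 2, and CDH5 and TEK on 1 each. The summed log2 level of the 5 leukocyte markers was 8.56 to 8.68 in controls, 9.11 to 9.39 at the low dose and 8.44 to 9.16 at the high dose. That of the 4 fibroblast markers was 7.97 to 8.87, 8.56 to 8.99 and 7.36 to 7.86, with 1 call, COL1A1, higher by 0.76 ± 0.16 at the low dose (adjusted p = 0.0262). That of the 4 endothelial markers was 7.98 to 10.33, 8.71 to 8.92 and 8.33 to 8.54. Their part in the results was not tested. Control 3, low 3 and high 2 had the lowest 75th percentiles over genes, 4.73, 4.54 and 4.54 against 4.80 to 4.94.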

How the data were processed

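Total RNA of 8 samples was measured on 1 array each. The deposited values are log2 expression values for 53617 probe sets; the authors used the Transcriptome Analysis Console, per the submitters' processing notes. How probes were summarized and arrays normalized, and with which version, was not given in the sources used here. That the scale is log2 was read from the range of the values, which reach 12.1. Values were used as deposited. Row names come from the platform annotation: 23558 rows had 1 symbol, 2155 several and 27904 none. Of the first, 22271 matched RefSeq by Entrez identifier and 3 symbols were updated. For 618 genes with several rows the row with the highest mean was kept, leaving 22109 genes.

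A single limma model held all 3 groups (version 3.58.1, R 4.3.3; lmFit, eBayes; 5 residual and 6.0 prior degrees of freedom), and p-values were adjusted by Benjamini-Hochberg over all genes of a comparison. A call is an adjusted p under 0.05. The scripts were tested on simulated data. The number of arrays limits the precision. The members, gene lists and tests were chosen with earlier results of these data known. Named were all members, up to 4 called genes per list and the 3 genes most like NR3C1, TSC22D3 and SGK1; other names are marked as chosen after their values were seen, or are markers or paralogs of a called gene. Deviations of same-numbered control and low arrays from their group means correlated at 0.103, 0.153 and 0.203 over genes. For unlike numbers the values ran from -0.179 to 0.122. The highest of these, control 1 with low 2, exceeded control 1 with low 1. Over the 11055 brighter genes these 2 pairs were at 0.111 and -0.002, so a pairing by number is unclear for replicate 1. The main model held no block, and blocks by number were alternatives only. The deviations of the 2 high arrays are each other's negative, so their numbers could not be checked. The replicate block over all arrays used them all the same, and the block over control and low arrays alone did not. Alternatives were quantile normalization, subtraction of medians, a filter on dim genes, the block, the 2 groups alone, array weights, a variance trend, the mean of a gene's rows and leaving out arrays.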

Additional observations from a re-analysis of the deposited data

How the results depend on the processing

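No member was called under any alternative in any comparison, with 1 exception: array weights gave 1 called member at the low dose, TSC22D3. Under the filter on dim genes only 4 of the 7 members were tested. Of 21 member results, 17 kept their direction throughout. ESR2 at the high dose turned to 0.04 with medians subtracted and 0.03 with quantile normalization, and lay between -0.18 and 0.08 when 1 array was left out. GPER1 at the low dose lay between -0.12 and 0.15 when 1 array was left out. SGK1 at the low dose was -0.07 without control 3, low 3 and high 2 together and -0.14 to 0.66 when 1 array was left out, and at the high dose -0.68 to 0.12. AKR1C1 at the high dose was -0.02 with array weights and -0.04 to 0.15 when 1 array was left out. Causes were not tested. KLF9 at the high dose passed under 7 of 17 alternatives. With the replicate block, which also used the unchecked numbers of the high arrays, 0 members were called in each comparison. TSC22D3 at the low dose then had a change of 0.46 (adjusted p = 0.208). The block over control and low arrays alone was chosen after seeing the data. Among the calls of KLF9, NFKBIA, PER1 and AKR1C1 at the low dose, it ended only that of AKR1C1. Over all genes, limma's 664 calls at the low dose and 180 at the high dose were 1059 and 1228 with the block, 1182 and 459 with quantile normalization, 2055 and 1004 with array weights, and 658 and 990 without control 3. Over genes with a single symbol, the receptors' mean distance from the array median over 8 arrays was -0.90 for ESR1, -0.47 for ESR2, -1.42 for PGR, 3.64 for NR3C1 and 0.85 for GPER1, against -0.23, 0.20, -0.74, 4.31 and 1.53 over all rows. Without a measure of background, dim genes carry the least information.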
